A study of Mus musculus with 44 samples.

Results

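The inflammation effect of a T cell transfer colitis and of TNFΔARE disease, both in mouse intestine, was compared gene by gene in vehicle-treated animals. The comparison used 20 of the 44 libraries of the series, 5 in each of 4 groups, and asked which genes changed alike in both models and which changed more in one. All mice were C57BL/6 and received vehicle, a mix of 0.5% methylcellulose and 0.025% Tween20 in PBS. They were dosed again after 16 h, and intestine was taken 90 min after that. Inflamed transfer mice were Rag1 null animals injected with 400000 naive T cells, which developed colitis within 8 to 12 weeks. Their non-inflamed counterparts were Rag1 null animals injected with 200000 bulk T cells, so the transferred population and its number differ together with inflammation. Inflamed TNFΔARE mice were Tnf ∆ARE/+ heterozygotes, and their non-inflamed counterparts were Tnf +/+ littermates, both randomized at 16 weeks of age. The transfer mice also lack their own T and B cells in both groups, while the TNFΔARE mice keep theirs. The 4 groups come from the labels. Inflamed transfer replicate 3 was left out because its transcripts were those of small intestine. It read Hoxb13 at 0.0708 CPM and 63024 CPM summed over small intestinal enterocyte genes. These values use TMM factors from all 44 libraries without a count filter, called the 44-library scale. All other CPM are read counts divided by library size as scaled by edgeR's TMM factors from the 43 fitted libraries, unless on the 44-library scale.

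In transfer colitis, naive T cells placed in a host without lymphocytes expand against gut antigens and recruit myeloid cells to the colon. In the TNFΔARE model, loss of an AU-rich element from the Tnf mRNA prolongs the life of that mRNA, and excess TNF acts on stromal and epithelial cells and causes disease of the ileum. Both are used as models of inflammatory bowel disease, one started by T cells and the other by a cytokine.

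The tissue differed with the model, which the labels name only as distal colon and ileum together. Hoxb13, a transcription factor of the distal colon, read 106 to 242 CPM in inflamed and 258 to 556 CPM in non-inflamed transfer libraries, against at most 0.229 and 0.117 CPM in inflamed and non-inflamed TNFΔARE libraries. The ileal bile acid binding protein gene Fabp6 read 0.556 to 5.89 and 2.23 to 112 CPM in inflamed and non-inflamed transfer libraries, against 1817 to 3612 and 4265 to 6947 CPM in the TNFΔARE groups. Model and gut region therefore cannot be told apart in any difference below. The B cell receptor gene Cd79a stayed at or under 0.302 CPM in all transfer libraries, against 48.1 to 127 CPM in inflamed and 5.91 to 71.8 CPM in non-inflamed TNFΔARE libraries. Library totals ran from 5953607 to 22347011 counts. Some libraries stood apart. Inflamed transfer replicate 1, the shallowest, held 37802 CPM summed over pancreatic acinar genes and replicate 5 held 539.9 CPM. The other vehicle libraries held at most 313 CPM. These sums are on the 44-library scale. With 3 inhibitor-treated libraries over 500 CPM on that scale, replicates 1 and 5 are called the libraries with acinar transcripts below. Inflamed TNFΔARE replicates 1, 3 and 5 held 787, 438 and 281 CPM of the colonocyte gene Car1, against 8.54 and 1.21 CPM in replicates 2 and 4, and those 3 are called the Car1 libraries. Batch was uneven. Inflamed transfer mice had 4 libraries of batch 4 and 1 of batch 3, against 2 of batch 4 and 3 of batch 1 in non-inflamed ones. Inflamed TNFΔARE mice had 4 libraries of batch 2 and 1 of batch 3, against 5 of batch 2. Batch was therefore a term of the fit, with the inhibitor-treated libraries of the series entering only to estimate batch and spread.

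Of 15555 genes tested, 1696 rose (10.9%) and 1492 fell (9.59%) with inflammation in transfer mice, and 1218 rose (7.83%) and 988 fell (6.35%) in TNFΔARE mice. The 2 single-model comparisons share no library, but all come from 1 fit. Of these genes 597 rose in both models, which is 35.2% of those that rose in the transfer model and 49.0% of those that rose in the TNFΔARE model. Another 310 fell in both, which is 20.8% of the transfer list and 31.4% of the TNFΔARE list. Opposite directions were called for 58 genes. The difference between the models, the change in transfer mice minus the change in TNFΔARE mice on the log2 scale, passed the threshold for 552 genes, 3.55% of those tested. For 313 of them (2.01%) the change was higher in transfer mice and for 239 (1.54%) it was lower. The test was edgeR's two-sided quasi-likelihood F-test with Benjamini-Hochberg adjustment over all genes, at 0.05. Genes are not independent of each other, and across them the log2 fold changes of the models correlated with r = 0.370 (Pearson) and rho = 0.425 (Spearman). Of the 313 genes, 158 rose in the transfer model alone, 110 fell in the TNFΔARE model alone and 29 did both. Of the 239 genes, 101 fell in the transfer model alone, 100 rose in the TNFΔARE model alone and 29 did both. Genes that rose in both models were 3.84% and those that fell in both 1.99% of all tested. Counts within gene lists below are to be read against these shares over all genes.

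**Figure D1:**
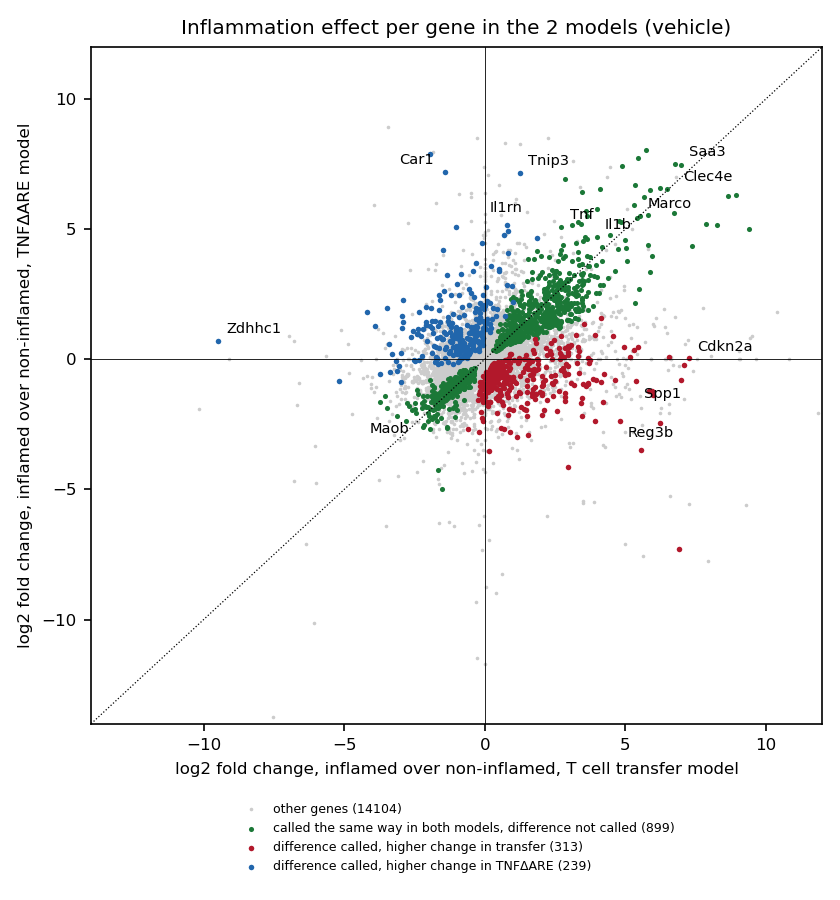
Log2 fold change of inflamed over non-inflamed vehicle mice for each of 15555 genes, with the transfer model on the horizontal and the TNFΔARE model on the vertical axis. Green points (899 genes) were called the same way in both models without a called difference, and lie along the dotted line of equal change; red (313) and blue (239) points were called in the difference and lie to its right or above it.

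Of 24 tested neutrophil markers, 21 rose in transfer mice and 17 in TNFΔARE mice, and all 17 rose in both. Among all genes 10.9% rose in transfer mice, 7.83% in TNFΔARE mice and 3.84% in both, and 3.55% were called in the difference. No neutrophil marker was called in the difference by edgeR (1 lower at an unadjusted p under 0.05) or limma-voom, and 1 was called higher by DESeq2 and 1 by edgeR without non-inflamed transfer replicate 7. The median log2 change of the markers was 5.21 in the transfer and 4.05 in the TNFΔARE model, against 0.00 and -0.03 over all genes. With 3 and 2 markers that had no counts in a whole group set to their bounds, the medians were 5.21 and 3.98. Marker by marker the median difference was -0.18, and 11 of the 24 differences were positive. In whole tissue, more cells of a type and more RNA per cell cannot be told apart. S100a9, a subunit of the neutrophil protein calprotectin (chr3:90692632-90695721 on GRCm38, next to S100a8), is an example. In transfer mice S100a9 had 204, 19.2, 87, 342 and 559 CPM in inflamed libraries, against 0, 0.101, 0.423, 0.0951 and 14.9 CPM in non-inflamed ones. In TNFΔARE mice S100a9 had 36.9, 114, 38.1, 31.5 and 22.9 CPM in inflamed libraries, against 0.231, 0.112, 0, 0.547 and 0 CPM in non-inflamed ones. The groups did not overlap in either model, and the highest non-inflamed value was that of transfer replicate 7. The log2 change was 5.73 ± 1.07 (SE, adjusted p = 0.000637) in the transfer model and 8.06 ± 2.03 (SE, adjusted p = 0.0002) in the TNFΔARE model, with a difference of -2.33 ± 2.29 (SE, 95% confidence interval -6.99 to 2.33, adjusted p = 0.588). These and the values below are fits to 5 libraries a group. S100a8, its partner subunit, rose by 5.44 and 7.73 on the log2 scale in the transfer and TNFΔARE models (adjusted p = 0.00181 and 0.000885). The protease inhibitor gene Stfa2l1 had 315 and 34 counts in inflamed transfer and inflamed TNFΔARE libraries and none in either non-inflamed group, at least 109-fold and 12.2-fold higher against a floor of 3 counts over the group. Similar stefin genes may share reads with it, and its TNFΔARE call was lost without inflamed TNFΔARE replicate 2.

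Clec4e, the C-type lectin Mincle that senses mycobacterial and fungal lipids (chr6:123281789-123289870), had 31.5, 11.5, 61.8, 22.5 and 55.4 CPM in inflamed transfer libraries, against 0, 0.101, 0.302, 0 and 0.948 CPM in non-inflamed ones. In TNFΔARE mice Clec4e had 55.6, 121, 47.3, 28.5 and 32.8 CPM when inflamed, against 0.384, 0.112, 0.106, 0.985 and 0 CPM when not. The lowest inflamed value exceeded the highest non-inflamed value in both models. Clec4e changed by 6.78 ± 0.95 (SE, adjusted p = 6.76e-06) in the transfer model and by 7.50 ± 1.03 (SE, adjusted p = 5.67e-07) in the TNFΔARE model, a difference of -0.72 ± 1.40 (SE, 95% confidence interval -3.56 to 2.12, adjusted p = 0.842). Its neighbour Clec4d (chr6:123262111-123275265), which encodes a partner lectin, rose by 6.24 and 6.59 on the log2 scale. The scavenger receptor Marco, of bacteria-clearing macrophages, rose by 5.52 ± 0.92 (SE, adjusted p = 5.9e-05) in transfer mice and 5.50 ± 0.86 (SE, adjusted p = 1.7e-05) in TNFΔARE mice, a difference of 0.02 ± 1.26 (SE, 95% confidence interval -2.55 to 2.58, adjusted p = 1). Of 16 resident macrophage markers 8 rose in transfer mice, 10 rose and 1 fell in TNFΔARE mice, and 8 rose in both. Of 14 recruited monocyte markers 10 rose in the transfer and 6 in the TNFΔARE model, all 6 of them in both, and Fcgr1, a high affinity Fc receptor, was called higher (2.53 (adjusted p = 0.0188)) and Cd14 lower (-1.87 (adjusted p = 0.0043)) in the difference. The Fcgr1 difference did not pass without the Car1 libraries (adjusted p = 0.0994). F10, coagulation factor X and a member of that list, rose by 5.34 and 6.70 on the log2 scale in the transfer and TNFΔARE models, and Ly6i, a surface protein of the Ly6 family whose paralogs share reads, by 5.89 and 6.50.

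Il1b, the cytokine interleukin-1 beta, had 70.01, 12.1, 38.8, 24.1 and 61.3 CPM in inflamed transfer libraries, against 0.121, 1.06, 2.18, 0.998 and 4.19 CPM in non-inflamed ones. In TNFΔARE mice Il1b had 42.2, 124, 38, 29.9 and 14.9 CPM when inflamed, against 3, 1.34, 1.9, 3.61 and 0.468 CPM when not. Inflamed and non-inflamed libraries were separate in each model. Il1b rose by 3.98 ± 0.72 (SE, adjusted p = 0.000301) and 4.70 ± 0.69 (SE, adjusted p = 2.32e-05) in the transfer and TNFΔARE models, and the difference was -0.72 ± 1.00 (SE, 95% confidence interval -2.74 to 1.30, adjusted p = 0.763). Of 8 neutrophil-attracting chemokine and receptor genes 7 rose in transfer mice, 5 in TNFΔARE mice and 5 in both, with none of the 8 called in the difference by edgeR (1 higher at an unadjusted p under 0.05). Cxcl2, a ligand of the neutrophil receptor CXCR2, had 13, 1.17, 5.96, 10.9 and 22.5 CPM in inflamed transfer libraries, against 0, 0, 0.0604, 0.0951 and 1.3 CPM in non-inflamed ones, where replicate 7 overlapped the lowest inflamed library. In TNFΔARE mice Cxcl2 had 1.98, 5.19, 3.3, 1.94 and 0.853 CPM when inflamed, against 0.0769, 0, 0, 0.219 and 0 CPM when not. With 3 counts in the non-inflamed TNFΔARE group, the ratio of pooled counts was 43.5 there (95% exact interval 14.5 to 214, counting error only), and the log2 change in transfer mice was 4.77 ± 0.98 (SE, adjusted p = 0.000701). Of 12 interleukin-1 family genes 6 rose and 1 fell in transfer mice, 7 rose and 1 fell in TNFΔARE mice, and 5 rose in both. Of 23 CC chemokine and receptor genes 15 rose and 1 fell in transfer mice, 10 rose in TNFΔARE mice and 8 rose in both, with Ccl5 called higher and Ccl28 lower in the difference. Of 11 interleukin-6 family genes 4 rose in transfer mice and 1 in TNFΔARE mice. None of the 11 rose in both by edgeR or DESeq2 (1 by limma-voom), and none was called in the difference by edgeR (3 higher and 1 lower at an unadjusted p under 0.05) or DESeq2 (2 by limma-voom). Over all genes tested 10.9% rose in transfer mice, 7.83% in TNFΔARE mice and 3.84% in both, and 3.55% were called in the difference. The 1 of 11 in TNFΔARE mice and none of 8 or 11 in the difference are near these shares.

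Tnf, whose mRNA carries the deletion in the TNFΔARE mice, rose in both models. In transfer mice Tnf had 19.1, 8.09, 16.9, 21.3 and 30.4 CPM when inflamed, against 0.181, 1.72, 2.48, 0.808 and 7.93 CPM when not. In TNFΔARE mice Tnf had 41.7, 58.9, 44, 27.9 and 16.5 CPM when inflamed, against 2, 0.892, 1.16, 1.31 and 0.468 CPM when not. The groups were separate in each model, although non-inflamed transfer replicate 7 lay just under the lowest inflamed library. Tnf changed by 2.73 ± 0.70 (SE, adjusted p = 0.00521) in the transfer model and 5.08 ± 0.72 (SE, adjusted p = 1.28e-05) in the TNFΔARE model, and the difference of -2.35 ± 1.01 (SE, 95% confidence interval -4.40 to -0.31, adjusted p = 0.198) did not pass. For this gene, as for every other gene in the TNFΔARE model, the deletion and inflammation cannot be told apart. Gene counts do not show the deletion itself. Of 18 tested TNF family ligands and receptors 14 rose in transfer mice, 6 in TNFΔARE mice and 5 in both. The shares over all genes tested were 10.9%, 7.83% and 3.84%. Tnfrsf1a, the widely expressed TNF receptor, was called in the difference at 0.81 (adjusted p = 0.0459), a call lost without the Car1 libraries (adjusted p = 0.275) and without the libraries with acinar transcripts (adjusted p = 0.103).

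Serum amyloid and acute phase genes made up another shared group, with 7 of 10 higher in transfer mice, 6 in TNFΔARE mice and 6 in both. Saa3, an acute phase apolipoprotein made by inflamed epithelium and macrophages, had 216, 46.8, 366, 109 and 737 CPM in inflamed transfer libraries, against 0, 0, 2.36, 0.0951 and 6.88 CPM in non-inflamed ones. In TNFΔARE mice Saa3 had 482, 1025, 509.6, 437 and 268 CPM when inflamed, against 3.38, 1.23, 3.7, 6.79 and 0.819 CPM when not. No inflamed library overlapped a non-inflamed one. The changes were 6.97 ± 0.93 (SE, adjusted p = 2.66e-05) in the transfer and 7.48 ± 0.87 (SE, adjusted p = 3.89e-06) in the TNFΔARE model, with a difference of -0.51 ± 1.27 (SE, 95% confidence interval -3.09 to 2.06, adjusted p = 0.88). Of 18 complement genes 14 rose in transfer mice, 13 in TNFΔARE mice and 12 in both, and Itgam, the integrin chain of complement receptor 3, was called higher in the difference (1.83 (adjusted p = 0.0096)). Cfp encodes properdin, which stabilizes the convertase of the alternative pathway. In transfer mice Cfp had 45.3, 16.7, 41.4, 21.7 and 58.3 CPM when inflamed, against 5.26, 5.22, 6.46, 3.23 and 8.43 CPM when not. In TNFΔARE mice Cfp had 72.6, 85.7, 59.2, 56.8 and 43.1 CPM when inflamed, against 12.3, 4.79, 7.51, 13.6 and 6.9 CPM when not. The groups were separate in both models. Cfp rose by 2.60 and 2.85 on the log2 scale, a difference of -0.25 ± 0.53 (SE, 95% confidence interval -1.34 to 0.83, adjusted p = 0.858).

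Of 23 genes of matrix proteases and inflamed stroma 18 rose in transfer mice, 16 in TNFΔARE mice and 14 in both, and 2 (Mmp10 and Spp1) were called higher in the difference. Of 17 collagen genes 2 rose in transfer mice, 3 in TNFΔARE mice and 1 in both. Over all genes tested these shares were 10.9%, 7.83% and 3.84%. Mmp3, the stromal protease stromelysin, had 76.1, 7.58, 44.1, 27.6 and 41.3 CPM in inflamed transfer libraries, against 0.302, 0.456, 0.665, 0.19 and 1.5 CPM in non-inflamed ones. In TNFΔARE mice Mmp3 had 61.1, 49.97, 28.1, 11.8 and 35.8 CPM when inflamed, against 0.769, 0.669, 0.317, 0.985 and 0.234 CPM when not. Inflamed libraries lay above non-inflamed ones throughout. Mmp3 changed by 5.32 ± 0.62 (SE, adjusted p = 1.34e-06) in the transfer and 5.94 ± 0.66 (SE, adjusted p = 6.84e-08) in the TNFΔARE model, a difference of -0.62 ± 0.90 (SE, 95% confidence interval -2.45 to 1.20, adjusted p = 0.776). Of 16 endothelial and adhesion genes 11 rose in transfer mice, 8 in TNFΔARE mice and 8 in both. Plvap, of fenestrated endothelium, and the integrin gene Itgb7 were called higher in the difference (1.58 (adjusted p = 0.0424) and 2.21 (adjusted p = 0.0495)), but neither without the libraries with acinar transcripts (adjusted p = 0.087 and 0.0911). Icam1, the leukocyte adhesion molecule of endothelium, had 91.1, 44.1, 98.5, 63.2 and 127 CPM in inflamed and 4.6, 8.06, 10.3, 5.13 and 28.1 CPM in non-inflamed transfer libraries. The TNFΔARE libraries had 82.6, 97.9, 59.8, 46.2 and 44.5 CPM when inflamed, against 23.6, 5.46, 12.8, 12.9 and 10.9 CPM when not. Its changes of 2.55 and 2.40 in the transfer and TNFΔARE models differed by 0.15 ± 0.68 (SE, 95% confidence interval -1.23 to 1.53, adjusted p = 0.95). Ccl19, a chemokine of lymphoid stroma that guides T cells and dendritic cells, rose by 3.52 ± 0.94 (SE, adjusted p = 0.0115) in transfer mice and 3.02 ± 0.84 (SE, adjusted p = 0.0146) in TNFΔARE mice. In the transfer model its inflamed libraries, at 1.03 to 11.6 CPM, overlapped the non-inflamed ones at 0 to 1.21 CPM, and the call there was lost without non-inflamed transfer replicate 6 (adjusted p = 0.0625). Of 13 genes of lymphoid tissue stroma 8 rose in transfer mice, 9 in TNFΔARE mice and 7 in both. Mmp10, stromelysin-2, was 1 of 8 genes that changed the same way but by unequal amounts: it rose by 4.13 ± 0.49 (SE, adjusted p = 9.94e-07) in transfer mice and 1.57 ± 0.38 (SE, adjusted p = 0.00429) in TNFΔARE mice, a difference of 2.56 ± 0.62 (SE, 95% confidence interval 1.30 to 3.82, adjusted p = 0.0115). That difference did not pass without the libraries with acinar transcripts (1.99, adjusted p = 0.0573) or without the Car1 libraries (2.58, adjusted p = 0.0773). The others were Itgam, Cytip and Podnl1, with the larger change in the transfer model, and Cd14, Anxa5, Krt7 and Chrdl2, with the larger change in the TNFΔARE model.

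**Figure D2:**
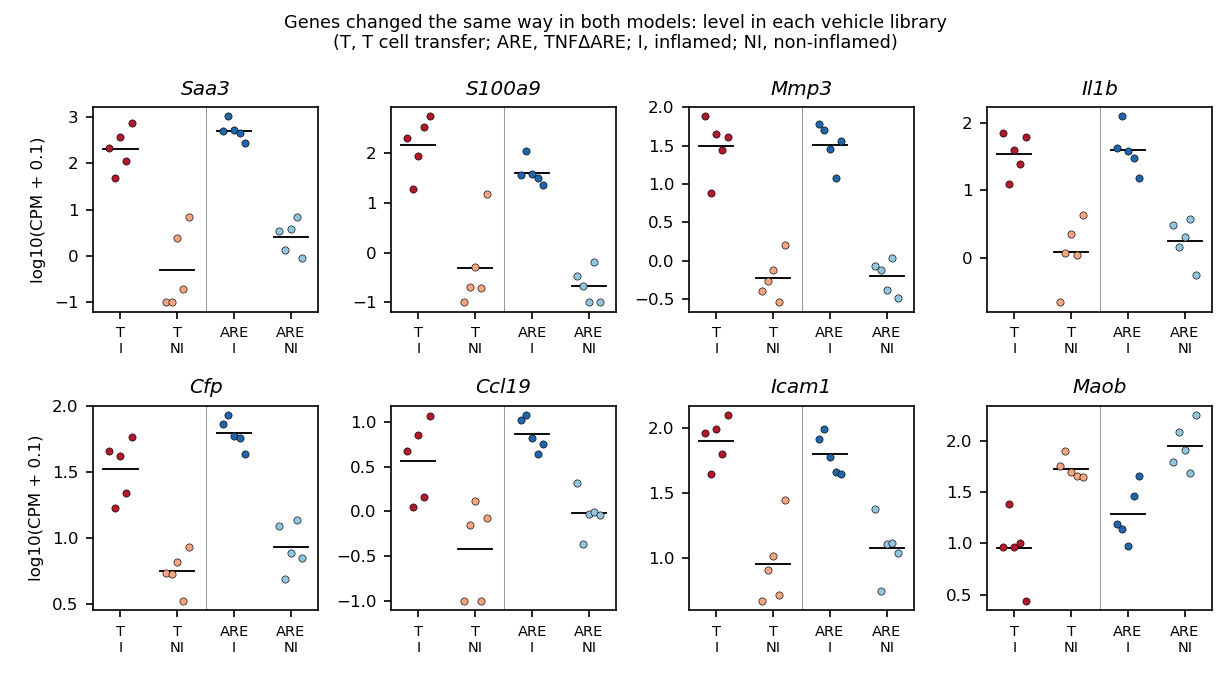
Level of 8 genes in each vehicle library, as log10(CPM + 0.1), in inflamed and non-inflamed transfer (T) and TNFΔARE (ARE) mice. Points are libraries (5 per group) and bars are means of the plotted values. Saa3, S100a9, Mmp3, Il1b, Cfp, Ccl19 and Icam1 lie higher and Maob lower in inflamed mice of both models, with overlap of the groups for Ccl19 in transfer mice.

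Among genes that fell, 310 did so in both models, 1.99% of those tested, and none of these was called in the difference. Maob, a mitochondrial monoamine oxidase, had 9.06, 24, 9.2, 10.001 and 2.66 CPM in inflamed transfer libraries, against 56.7, 79.1, 49.6, 45.3 and 44.6 CPM in non-inflamed ones. In TNFΔARE mice Maob had 15.4, 13.7, 9.44, 28.9 and 45.2 CPM when inflamed, against 62.8, 123, 81.5, 48.8 and 180.1 CPM when not. Every inflamed library was below every non-inflamed one within its model. Maob changed by -2.18 ± 0.43 (SE, adjusted p = 0.00054) and -2.52 ± 0.40 (SE, adjusted p = 5.5e-05) in the transfer and TNFΔARE models, with a difference of 0.34 ± 0.59 (SE, 95% confidence interval -0.85 to 1.53, adjusted p = 0.821). Slc22a3, a transporter of organic cations, changed by -2.79 and -2.38 and was at or under 0.903 CPM in all transfer libraries. Ugt2b5, a glucuronidation enzyme with close paralogs, changed by -3.13 and -2.16, and Dclk3, a protein kinase gene, by -2.45 and -2.07. The Ugt2b5 calls were lost without non-inflamed transfer replicate 6 in the transfer model and without any 1 of 7 libraries in the TNFΔARE model. Of 30 cytochrome P450 and detoxification genes 13 fell and 1 rose in transfer mice, 12 fell and 1 rose in TNFΔARE mice, and 4 fell in both. Over all genes tested 9.59% fell in transfer mice, 6.35% in TNFΔARE mice and 1.99% in both.

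Promoters were read for the motif of NF-kappaB, the transcription factor through which TNF and interleukin-1 act, searched on both strands as GGG, any 2 bases and TTTCC, from 250 bases before to 50 bases after the start. Of 446 genes that rose in both models and had a promoter in the RefSeq table, 28 held it (6.28%), against 232 of 11462 tested genes (2.02%). The share was 1.71% (4 of 234) among genes with the higher change in transfer mice and 3.61% (6 of 166) among those with the higher change in TNFΔARE mice. The interferon response motif (GAAA, any 2 bases and GAAA) was held by 7.62%, 7.69% and 3.01% of the same 3 sets, against 3.86% of all, and the GAS motif (TTC, any 3 bases and GAA) by 10.5%, 14.1% and 11.4%, against 8.41%. Genes with several starts counted as holding a motif when any start did. These shares are descriptions without a test, and a match is not a binding site. Of 40 named genes with a promoter in the table, 4 held the NF-kappaB motif in the 250 bases before a start. Their sequences are shown, 5′ to 3′ on the gene's strand with the motif in capitals, because 2 rose in both models (Cxcl2 and Marco), 1 had the higher change in the TNFΔARE model (Il1rn) and 1 in the transfer model (Sytl3).
Cxcl2 (chr5:90903649-90903898, plus strand, GRCm38.p6): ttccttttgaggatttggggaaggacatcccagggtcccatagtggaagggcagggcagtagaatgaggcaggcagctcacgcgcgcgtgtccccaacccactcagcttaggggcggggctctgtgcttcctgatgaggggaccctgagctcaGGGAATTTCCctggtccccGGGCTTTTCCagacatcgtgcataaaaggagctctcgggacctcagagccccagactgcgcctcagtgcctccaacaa
Marco (chr1:120505025-120505274, minus strand, GRCm38.p6): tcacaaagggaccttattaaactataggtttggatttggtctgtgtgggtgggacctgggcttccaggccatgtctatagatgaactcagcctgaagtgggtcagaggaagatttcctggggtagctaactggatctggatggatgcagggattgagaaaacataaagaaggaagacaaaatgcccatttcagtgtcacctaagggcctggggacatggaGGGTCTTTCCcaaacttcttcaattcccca
Il1rn, the third of 3 starts (chr2:24345121-24345370, plus strand, GRCm38.p6): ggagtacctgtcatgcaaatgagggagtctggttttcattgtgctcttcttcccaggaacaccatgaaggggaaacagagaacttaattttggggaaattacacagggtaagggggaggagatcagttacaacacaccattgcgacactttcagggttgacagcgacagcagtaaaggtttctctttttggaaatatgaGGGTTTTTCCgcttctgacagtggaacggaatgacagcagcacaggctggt
Sytl3 (chr17:6658809-6659058, plus strand, GRCm38.p6): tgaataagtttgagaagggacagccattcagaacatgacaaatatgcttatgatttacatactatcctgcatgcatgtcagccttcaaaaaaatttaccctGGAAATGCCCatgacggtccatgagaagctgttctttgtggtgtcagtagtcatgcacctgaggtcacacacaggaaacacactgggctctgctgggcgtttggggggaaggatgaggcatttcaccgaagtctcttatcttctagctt
Cxcl2 held 2 such motifs, beginning 97 and 78 bases before the start, and the other genes held 1 each, beginning 30 (Marco), 51 (Il1rn) and 149 (Sytl3) bases before it.

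T cell genes rose in transfer mice. Of 24 markers 22 were called there, none in TNFΔARE mice by edgeR or DESeq2 (2 by limma-voom, and 2 at an unadjusted p under 0.05 in edgeR), and 10 were called higher in the difference. Over all genes tested 10.9% rose in transfer mice, 14.2% were called in TNFΔARE mice and 2.01% were called higher in the difference. All 24 differences were positive, with median log2 changes of 2.95 in transfer mice, 0.07 in TNFΔARE mice and 2.79 for the difference, against 0.02 over all genes. Summed over the list, inflamed and non-inflamed transfer libraries held 241 to 539 and 17.4 to 122 CPM, against 151 to 209 and 77.8 to 299 CPM in inflamed and non-inflamed TNFΔARE libraries. The non-inflamed transfer mice stood lowest, and the inflamed groups were nearer to each other. Both transfer groups were hosts without their own T cells, and the cause of the low level was not tested. Cd3d, which encodes the CD3 delta chain, had 10.5, 6.83, 17.3, 6.22 and 24.9 CPM in inflamed transfer libraries, against 0.121, 1.17, 1.39, 0.0475 and 2.94 CPM in non-inflamed ones. In TNFΔARE mice Cd3d had 5.04, 9.23, 6.61, 12.3 and 3.41 CPM when inflamed, against 7.46, 1.9, 6.98, 18.8 and 4.21 CPM when not. The groups were separate in the transfer model and overlapped in the TNFΔARE model. Cd3d had log2 changes of 3.76 ± 0.78 (SE, adjusted p = 0.000895) in transfer mice and -0.04 ± 0.69 (SE, adjusted p = 0.989) in TNFΔARE mice, and the difference was 3.80 ± 1.04 (SE, 95% confidence interval 1.68 to 5.91, adjusted p = 0.0293). The difference was not called without inflamed transfer replicate 1 or 6, non-inflamed transfer replicate 6, inflamed TNFΔARE replicate 1 or non-inflamed TNFΔARE replicate 4 (highest adjusted p = 0.0867), nor without the libraries with acinar transcripts (adjusted p = 0.108) or the Car1 libraries (adjusted p = 0.261). Thy1, a surface protein of T cells and some stromal cells, had 50.6, 32.5, 55.4, 33.1 and 69.4 CPM in inflamed and 14.4, 12.6, 14.9, 8.56 and 12.1 CPM in non-inflamed transfer libraries. TNFΔARE libraries had 13, 18.9, 13.3, 14.1 and 9.53 CPM when inflamed, against 12.8, 12, 8.15, 11.1 and 7.72 CPM when not. Its difference of 1.72 ± 0.33 (SE, 95% confidence interval 1.06 to 2.38, adjusted p = 0.00144) passed with each library left out in turn. The count of 10 became 1 without the 5 libraries with acinar transcripts, 1 without the 3 Car1 libraries and 0 by edgeR without both sets, and the counts of markers that rose in transfer mice were then 16, 21 and 13. Without non-inflamed transfer replicate 7 the difference was called for 22 markers.

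Of 12 cytotoxic lymphocyte genes 11 rose in transfer mice, and 5 were called higher in the difference. None was called in TNFΔARE mice by edgeR (2 higher and 1 lower at an unadjusted p under 0.05), 1 by DESeq2 and 2 by limma-voom. Over all genes tested 10.9% rose in transfer mice, 2.01% were called higher in the difference and 14.2% were called in TNFΔARE mice. Fasl, the death ligand of cytotoxic cells, had 2.8, 2.48, 3.33, 1.91 and 3.94 CPM in inflamed transfer libraries, against 0, 0.253, 0.242, 0 and 0.898 CPM in non-inflamed ones. In TNFΔARE mice Fasl had 1.14, 0.231, 0.59, 0.729 and 1.14 CPM when inflamed, against 1.46, 0.446, 1.38, 2.74 and 1.29 CPM when not, so that only the transfer groups were separate. Fasl had log2 changes of 3.68 ± 0.80 (SE, adjusted p = 0.000836) in the transfer and -0.90 ± 0.73 (SE, adjusted p = 0.504) in the TNFΔARE model, a difference of 4.58 ± 1.08 (SE, 95% confidence interval 2.39 to 6.78, adjusted p = 0.00933), which did not pass without the libraries with acinar transcripts (adjusted p = 0.0707). The granzyme genes Gzma, Gzmb and Gzmk had differences of 5.63 (adjusted p = 0.0268), 4.44 (adjusted p = 0.0479) and 4.83 (adjusted p = 0.0165), and the chemokine Ccl5 4.62 (adjusted p = 0.0236). Gzma, a protease of killer cells, read 12.4 to 261 CPM in inflamed and 0.121 to 24.9 CPM in non-inflamed transfer libraries, against 8.08 to 51.9 and 25 to 326 CPM in the inflamed and non-inflamed TNFΔARE groups, with overlap in both models. Gzma, Gzmb, Gzmk and Ccl5 each lost the call when single libraries were left out, non-inflamed TNFΔARE replicate 4 for Gzmk, and replicate 6 of either transfer group or that same library for Ccl5. Without the libraries with acinar transcripts none of the 12 was called in the difference by edgeR, and without the Car1 libraries 1 was.

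Ifng, the main cytokine of type 1 T cells, had 7.41, 2.34, 5.91, 3.69 and 9.9 CPM in inflamed transfer libraries, against 0, 0.0507, 0.363, 0 and 1.8 CPM in non-inflamed ones. In TNFΔARE mice Ifng had 0.534, 0.923, 0.118, 0.364 and 0.284 CPM when inflamed, against 0.231, 0.223, 0.952, 0.876 and 0.234 CPM when not. Transfer groups were separate and TNFΔARE groups overlapped. Ifng rose by 3.46 ± 0.94 (SE, adjusted p = 0.00742) in transfer mice, against a log2 change of -0.07 ± 1.02 (SE, adjusted p = 0.986) in TNFΔARE mice, but the difference of 3.53 ± 1.39 (SE, 95% confidence interval 0.70 to 6.35, adjusted p = 0.16) did not pass. Without non-inflamed transfer replicate 7, the highest of its group, the Ifng difference was 6.64 and passed (adjusted p = 0.00304). Of 25 interferon gamma and response genes 7 rose in transfer mice, and 23 of the 25 differences were positive (median 0.95). None was called in the difference by edgeR (4 at an unadjusted p under 0.05) or DESeq2, and 11 were by limma-voom. In TNFΔARE mice edgeR called none (4 at an unadjusted p under 0.05), DESeq2 called 2 and limma-voom 3. Over all genes tested edgeR called 10.9% higher in transfer mice, 14.2% in TNFΔARE mice and 3.55% in the difference. None of 25 in the difference is near that last share. Summed over the list, inflamed transfer libraries held 3576 to 8297 CPM, against 368 to 1232 CPM in 4 non-inflamed ones and 5229.5 CPM in non-inflamed replicate 7, which lay inside the inflamed range. Without that replicate 23 of the 25 rose in transfer mice, 2 rose in TNFΔARE mice and 8 were called higher in the difference.

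Of 7 tested Reg family genes, Reg3a, Reg3b and Reg3g rose in transfer mice and had a higher change there. Reg3b (chr6:78370657-78373466), an antimicrobial lectin of epithelium that lies beside Reg3a and Reg3g, had 16287, 5921, 4361, 17787 and 7936 CPM in inflamed transfer libraries, against 4.78, 25.1, 60.2, 5.8 and 1329.6 CPM in non-inflamed ones. In TNFΔARE mice Reg3b had 859, 1909, 6086, 1136 and 1445 CPM when inflamed, against 4804, 5572, 7025, 33238 and 7703 CPM when not. The transfer groups were separate, and the TNFΔARE groups overlapped through inflamed replicate 3. Its level was lowest in non-inflamed transfer libraries, of which replicate 7 stood above the rest. Reg3b had log2 changes of 4.80 ± 1.00 (SE, adjusted p = 0.00141) in the transfer model and -2.35 ± 0.92 (SE, adjusted p = 0.102) in the TNFΔARE model, a difference of 7.15 ± 1.36 (SE, 95% confidence interval 4.39 to 9.90, adjusted p = 0.0023). Reg3g, its close paralog, differed by 5.45 ± 1.37 (SE, 95% confidence interval 2.67 to 8.23, adjusted p = 0.0185), but not without non-inflamed TNFΔARE replicate 4 (adjusted p = 0.0581) or the libraries with acinar transcripts (adjusted p = 0.183). Reg3a differed by 8.68 ± 2.37 (SE, 95% confidence interval 3.83 to 13.53, adjusted p = 0.0103), with 800.1 CPM in inflamed transfer replicate 1 against 0.748 to 19.1 CPM in the other 4. It was not called without non-inflamed transfer replicate 6 (adjusted p = 0.0581) or without the Car1 libraries (adjusted p = 0.0727). Reg3 genes are similar in sequence and counts may be split among them.

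Of 16 Paneth cell genes 6 rose in transfer mice and 3 were called higher in the difference. None was called in TNFΔARE mice by edgeR (7 lower at an unadjusted p under 0.05). The shares over all genes tested were 10.9% risen in transfer mice, 2.01% higher in the difference and 14.2% called in TNFΔARE mice. Lyz1, lysozyme of Paneth cells, had 167, 54.7, 61.2, 41.9 and 42.4 CPM in inflamed transfer libraries, against 5.69, 6.99, 9.91, 3.09 and 11.7 CPM in non-inflamed ones. In TNFΔARE mice Lyz1 had 3663, 649, 5118, 6873 and 4987 CPM when inflamed, against 11514, 4896, 11789, 17542 and 12002 CPM when not. Transfer groups were separate, and every TNFΔARE library held more than any transfer library. Gene counts do not show which cells the Lyz1 reads of transfer mice came from. Whether reads were shared with Lyz2, the lysozyme gene of the recruited monocyte list, was not tested. Lyz1 had log2 changes of 3.45 ± 0.57 (SE, adjusted p = 0.000123) in transfer and -1.50 ± 0.51 (SE, adjusted p = 0.0514) in TNFΔARE mice, a difference of 4.95 ± 0.77 (SE, 95% confidence interval 3.39 to 6.50, adjusted p = 0.000206), which passed with each library left out and without the libraries with acinar transcripts (adjusted p = 0.00212). The other Paneth cell genes called rested on 1 library. Defa24, an alpha-defensin with many near-identical copies, read 92.9 CPM in inflamed transfer replicate 1 and at most 0.692 CPM in the other inflamed transfer libraries. Mptx2, a mucosal pentraxin, read 20.3 CPM in that library and at most 0.0468 CPM in the others. Without the libraries with acinar transcripts the differences of Defa24 and Mptx2, 7.20 and 7.31 before, became 2.49 and 1.78 (adjusted p = 0.494 and 0.83).

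Another 3 genes, Spp1, Cdkn2a and Sytl3, had a higher change in transfer mice in at least 12 of 13 alternatives. Spp1, osteopontin of macrophages and wound epithelium, had 90.9, 1.31, 5.05, 5.39 and 41.7 CPM in inflamed transfer libraries, against 0.0605, 0.203, 0.544, 0.238 and 0.649 CPM in non-inflamed ones. In TNFΔARE mice Spp1 had 0.916, 1.04, 0.708, 0.364 and 0.853 CPM when inflamed, against 1.69, 2.56, 0.529, 0.876 and 1.05 CPM when not. The inflamed transfer libraries ranged widely but stayed above the non-inflamed ones. Spp1 had log2 changes of 5.39 ± 0.73 (SE, adjusted p = 1.5e-05) in transfer and -0.85 ± 0.72 (SE, adjusted p = 0.516) in TNFΔARE mice, a difference of 6.23 ± 1.02 (SE, 95% confidence interval 4.16 to 8.31, adjusted p = 0.000316). Cdkn2a, which encodes the cell cycle inhibitors p16 and p19ARF, had 5.27, 3.37, 1.01, 1.87 and 7.35 CPM in inflamed transfer libraries, against 0.0605, 0, 0, 0 and 0.0998 CPM in non-inflamed ones. In TNFΔARE mice Cdkn2a had 0.763, 1.04, 0.944, 0.85 and 0.711 CPM when inflamed, against 0.923, 0.669, 0.529, 0.985 and 1.29 CPM when not. Only the transfer groups were separate. The non-inflamed transfer group held 3 counts in all, and the pooled ratio in that model was 107 (95% exact interval 36.1 to 520, counting error only). The difference had an adjusted p of 1.32e-05, with 0.07 ± 0.55 (SE, adjusted p = 0.974) as the change in TNFΔARE mice. Sytl3, a synaptotagmin-like protein of vesicle traffic, moved in opposite directions. In transfer mice Sytl3 had 1.48, 5.1, 9.5, 3.4 and 7.93 CPM when inflamed, against 0.181, 0.456, 1.33, 0.713 and 1.25 CPM when not. In TNFΔARE mice Sytl3 had 3.28, 3.92, 3.89, 4.13 and 3.13 CPM when inflamed, against 7.84, 10.1, 6.88, 13 and 10.1 CPM when not. The groups were separate in both models, with log2 changes of 2.85 ± 0.53 (SE, adjusted p = 0.000344) in transfer mice and -1.44 ± 0.46 (SE, adjusted p = 0.0323) in TNFΔARE mice and a difference of 4.29 ± 0.70 (SE, 95% confidence interval 2.87 to 5.72, adjusted p = 0.000328). Its fall in TNFΔARE mice was lost without any 1 of 7 libraries (highest adjusted p = 0.0768), but the difference held without each.

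**Figure D3:**
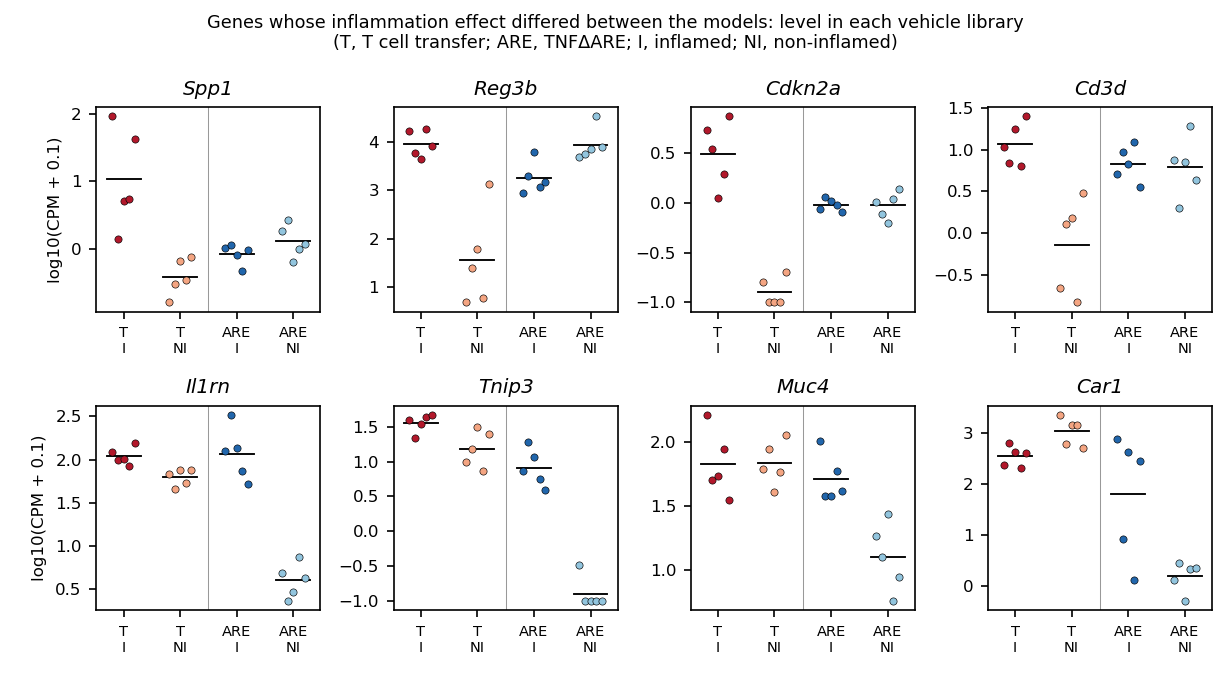
Level of 8 genes called in the difference, in each vehicle library as log10(CPM + 0.1), in inflamed and non-inflamed transfer (T) and TNFΔARE (ARE) mice (points are libraries, bars means of the plotted values). Spp1, Reg3b, Cdkn2a and Cd3d were lowest in non-inflamed transfer mice, and Il1rn, Tnip3, Muc4 and Car1 in non-inflamed TNFΔARE mice.

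Il1rn had the smallest adjusted p of the named genes in the difference and changed more in the TNFΔARE model. It encodes the interleukin-1 receptor antagonist, a natural inhibitor that competes with interleukin-1 for its receptor (chr2:24336853-24351494). In transfer mice Il1rn had 122, 98.3, 100.04, 84.7 and 154 CPM when inflamed, against 68.6, 45.7, 74.9, 53.9 and 75.2 CPM when not. In TNFΔARE mice Il1rn had 125, 329, 135, 73.2 and 51.8 CPM when inflamed, against 4.77, 2.23, 2.86, 7.34 and 4.21 CPM when not. The groups did not overlap in either model, and the non-inflamed TNFΔARE libraries stood apart from the 15 others. Il1rn had log2 changes of 0.78 ± 0.32 (SE, adjusted p = 0.0794) in transfer mice and 5.17 ± 0.32 (SE, adjusted p = 2.87e-12) in TNFΔARE mice, a difference of -4.39 ± 0.45 (SE, 95% confidence interval -5.31 to -3.47, adjusted p = 2.86e-07). It was called in all 13 alternatives and with each library left out (adjusted p = 4.57e-08 to 1.47e-06). The ligand Il1b, described above, rose in both models with no called difference. Il18r1, a receptor chain for interleukin-18 in the same family, had a difference of 2.70 (adjusted p = 0.0096), which did not pass without the Car1 libraries (adjusted p = 0.105).

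Tnip3, which binds the ubiquitin-editing protein A20 and limits NF-kappaB signalling, had 39.5, 21.6, 34.3, 43.3 and 47.2 CPM in inflamed transfer libraries, against 9.8, 15, 31.7, 7.32 and 24.7 CPM in non-inflamed ones. In TNFΔARE mice Tnip3 had 7.17, 19, 11.4, 5.47 and 3.84 CPM when inflamed, against 0.231, 0, 0, 0 and 0 CPM when not. All 3 non-inflamed TNFΔARE counts came from 1 library, and the pooled ratio in that model was 154 (95% exact interval 52.3 to 749, counting error only). The change in transfer mice was 1.25 ± 0.47 (SE, adjusted p = 0.0571), and the difference passed (adjusted p = 0.000189) and was called in all 13 alternatives. Its relative Tnip1, also an A20 partner, differed by -1.02 (adjusted p = 0.00929), but not without the Car1 libraries (adjusted p = 0.0784). Tspan33, a tetraspanin that accompanies the protease ADAM10, had log2 changes of -1.61 ± 0.38 (SE, adjusted p = 0.0028) in transfer mice, a call lost without non-inflamed transfer replicate 6, and 2.47 ± 0.39 (SE, adjusted p = 2.92e-05) in TNFΔARE mice. It had 6.42, 12.6, 5.61, 6.22 and 3.09 CPM in inflamed transfer libraries, against 39.9, 21.5, 27.1, 29.1 and 7.88 CPM in non-inflamed ones, with overlap. TNFΔARE libraries had 8.32, 10.3, 6.02, 6.56 and 6.54 CPM when inflamed, against 2.31, 0.892, 0.846, 1.42 and 1.4 CPM when not, without overlap. The difference was -4.08 ± 0.55 (SE, 95% confidence interval -5.19 to -2.98, adjusted p = 2.21e-05). Slc37a2, a sugar phosphate transporter of macrophages and epithelium, had 7.91, 79.9, 11.3, 10.2 and 9.85 CPM in inflamed and 449, 178, 216, 286 and 105 CPM in non-inflamed transfer libraries. In TNFΔARE mice Slc37a2 had 18, 9.58, 8.5, 4.49 and 10.1 CPM when inflamed, against 4.15, 1.9, 2.33, 1.86 and 2.11 CPM when not. Both models had separate groups, in opposite directions, and the difference was -5.46 ± 0.80 (SE, 95% confidence interval -7.10 to -3.83, adjusted p = 0.000103). The TNFΔARE rise was lost without inflamed TNFΔARE replicate 1 (adjusted p = 0.0957).

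Another 4 list members picked after their values were seen also had the lower change in transfer mice. Nox1, an epithelial NADPH oxidase that makes superoxide, read 94.6 to 207 CPM in inflamed and 19.96 to 151 CPM in non-inflamed transfer libraries, against 34.6 to 132 and 0.558 to 6.13 CPM in inflamed and non-inflamed TNFΔARE libraries, a difference of -4.09 (adjusted p = 0.00219). Il22ra2, the soluble binding protein that blocks interleukin-22, read 0.106 to 5.94 and 3.09 to 11.3 CPM in inflamed and non-inflamed transfer libraries, against 40.1 to 139 and 2.68 to 17 CPM in the TNFΔARE groups, a difference of -4.61 (adjusted p = 0.00287). Cd14, the lipopolysaccharide coreceptor, rose in both models, by 0.97 and 2.83 on the log2 scale, with a difference of -1.87 (adjusted p = 0.0043). Enpp2, the enzyme autotaxin of lymphoid stroma, had log2 changes of -0.11 in transfer mice and 2.07 in TNFΔARE mice, a difference of -2.18 (adjusted p = 0.0024). All 4 differences passed without the libraries with acinar transcripts and without the Car1 libraries. Muc4, a membrane mucin, had 163, 50.3, 54.4, 88.1 and 35 CPM in inflamed and 61.2, 88.5, 41, 58.4 and 114 CPM in non-inflamed transfer libraries. Inflamed TNFΔARE libraries had 103, 37.6, 37.8, 59.8 and 41.8 CPM, against 18.5, 12.5, 27.3, 5.69 and 8.78 CPM in non-inflamed ones, and only the TNFΔARE groups were separate. Its difference of -2.03 ± 0.59 (SE, 95% confidence interval -3.23 to -0.84, adjusted p = 0.0421) was lost without inflamed transfer replicate 2, 4 or 6, non-inflamed transfer replicate 2, 6 or 7, inflamed TNFΔARE replicate 1, 4 or 5 or non-inflamed TNFΔARE replicate 2, 4 or 5 (highest adjusted p = 0.127). Zdhhc1, a protein palmitoyltransferase, had no counts in the 5 inflamed transfer libraries, against 5.38, 1.47, 2.9, 5.89 and 4.44 CPM in non-inflamed ones, at least 121-fold lower against a floor of 3 counts over the group. It also read 0 in inflamed TNFΔARE replicate 1 and in non-inflamed TNFΔARE replicates 1 and 4, with 1.94 to 4.25 CPM in the other inflamed and 1.4 to 2.96 CPM in the other non-inflamed ones. Cyp2d34, a cytochrome P450 with close paralogs, had 23.7, 64.1, 35.7, 41.7 and 84.3 CPM in inflamed and 133, 91.5, 231, 100.3 and 67.4 CPM in non-inflamed transfer libraries. Inflamed TNFΔARE libraries had 0.763, 2.19, 1.53, 0.243 and 0 CPM, against 1 count in 1 of the 5 non-inflamed ones, and 1 inflamed library was at 0 as well. The pooled ratio in the TNFΔARE model was 47.5 (95% exact interval 8.09 to 1917), and the difference had an adjusted p of 0.00247.

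The 58 genes called in opposite directions, 0.373% of those tested, were 29 in each direction and all had a called difference, among them Sytl3, Tspan33 and Slc37a2 above. Slc51a, a bile acid exporter, had 0, 0.234, 0.152, 0 and 0.16 CPM in inflamed transfer libraries, against 0.302, 0.203, 0.121, 0 and 0 CPM in non-inflamed ones. Those groups overlap and have nearly the same mean, so its fitted transfer change of 2.86 ± 1.20 (SE, adjusted p = 0.0277), adjusted for batch, is not seen in the raw levels, and it was lost without any 1 of inflamed transfer replicates 2, 4 and 6 or non-inflamed transfer replicate 6. In TNFΔARE mice Slc51a had 11.2, 20.1, 15.1, 25.6 and 13.2 CPM when inflamed, against 34.5, 43, 34.9, 60.9 and 30.8 CPM when not, a log2 change of -1.29 ± 0.33 (SE, adjusted p = 0.0071).

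Several of the largest differences belonged to genes of 1 gut region and moved with the libraries that stood apart. Of 24 small intestinal enterocyte genes 12 fell in TNFΔARE mice, 1 rose and 3 fell in transfer mice, and 4 had a higher change in transfer than in TNFΔARE mice. The shares over all genes tested were, in that order, 6.35%, 10.9%, 9.59% and 2.01%. Treh, the brush border enzyme trehalase, read 14.3 CPM in inflamed transfer replicate 1 and 0.701 to 0.996 CPM in the other 4, against 0.242 to 1.15 CPM in non-inflamed ones. In TNFΔARE libraries it read 18.3 to 37.9 CPM when inflamed, against 55.1 to 183 CPM when not. Its difference of 3.68 ± 0.73 (SE, 95% confidence interval 2.18 to 5.17, adjusted p = 0.00165) became 2.17 without the libraries with acinar transcripts (adjusted p = 0.0473). Slc5a12, a lactate transporter, had 22 counts in inflamed transfer libraries, most in replicate 1 at 3.46 CPM, against 1 count in non-inflamed ones. In TNFΔARE mice Slc5a12 had 6.94, 3.12, 6.96, 8.38 and 10.9 CPM when inflamed, against 39, 58, 99.8, 71.1 and 103 CPM when not, a log2 change of -3.49 ± 0.38 (SE, adjusted p = 3.75e-07). Without the libraries with acinar transcripts its difference was not called (adjusted p = 0.536). Gip, an incretin hormone of the upper small intestine, had 20 counts in inflamed transfer replicate 1 and none in the 9 other transfer libraries, so its call rests on that library. Cyp4v3, a fatty acid hydroxylase, had log2 changes of 0.41 ± 0.25 (SE, adjusted p = 0.247) in transfer mice and -1.50 ± 0.23 (SE, adjusted p = 1.9e-05) in TNFΔARE mice, a difference of 1.91 ± 0.34 (SE, 95% confidence interval 1.22 to 2.59, adjusted p = 0.000832) called in 12 of 13 alternatives.

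Among colonocyte genes, Car1, a carbonic anhydrase of colon, had 239.5, 639, 428, 210.3 and 412 CPM in inflamed transfer libraries, against 2315, 632, 1442, 1464 and 507 CPM in non-inflamed ones. In TNFΔARE mice Car1 had 787, 8.54, 438, 1.21 and 281 CPM when inflamed, against 1.23, 2.79, 0.423, 2.08 and 2.22 CPM when not. Only replicates 1, 3 and 5 of the inflamed TNFΔARE group were high. The difference of -8.61 ± 1.68 (SE, 95% confidence interval -12.01 to -5.20, adjusted p = 0.00324) became -2.93 without these 3 libraries (adjusted p = 0.48). They were chosen by their Car1 level, so for Car1 itself this loss follows from the choice. Aqp8, a water channel of colonocytes, had 18.1, 0, 13.5, 0 and 4.83 CPM in inflamed TNFΔARE libraries, against 1 count in the 5 non-inflamed ones. In transfer mice Aqp8 had 8.73, 253, 169, 81.3 and 118 CPM when inflamed, against 733, 419, 474, 554 and 332 CPM when not. Without the Car1 libraries its difference was -0.29 (adjusted p = 0.995). Gal3st2c, a sulfotransferase gene with close paralogs, was likewise high in those 3 libraries (17, 3.89 and 7.39 CPM), and its difference of -5.19 ± 1.09 (SE, 95% confidence interval -7.41 to -2.96, adjusted p = 0.00421) was not called without them (adjusted p = 0.641) or without replicate 1 alone (adjusted p = 0.0568). Of the 19 genes of the colonocyte list, 9 were called lower and 1 higher in transfer mice, 3 lower and 2 higher in TNFΔARE mice, and 4 had the lower change in transfer mice, against 1 without the Car1 libraries. Car1 itself is 1 of these 4. Over all genes tested 9.59% were lower and 10.9% higher in transfer mice, and 6.35% lower and 7.83% higher in TNFΔARE mice. The lower change in transfer mice was called for 1.54%.

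**Figure D4:**
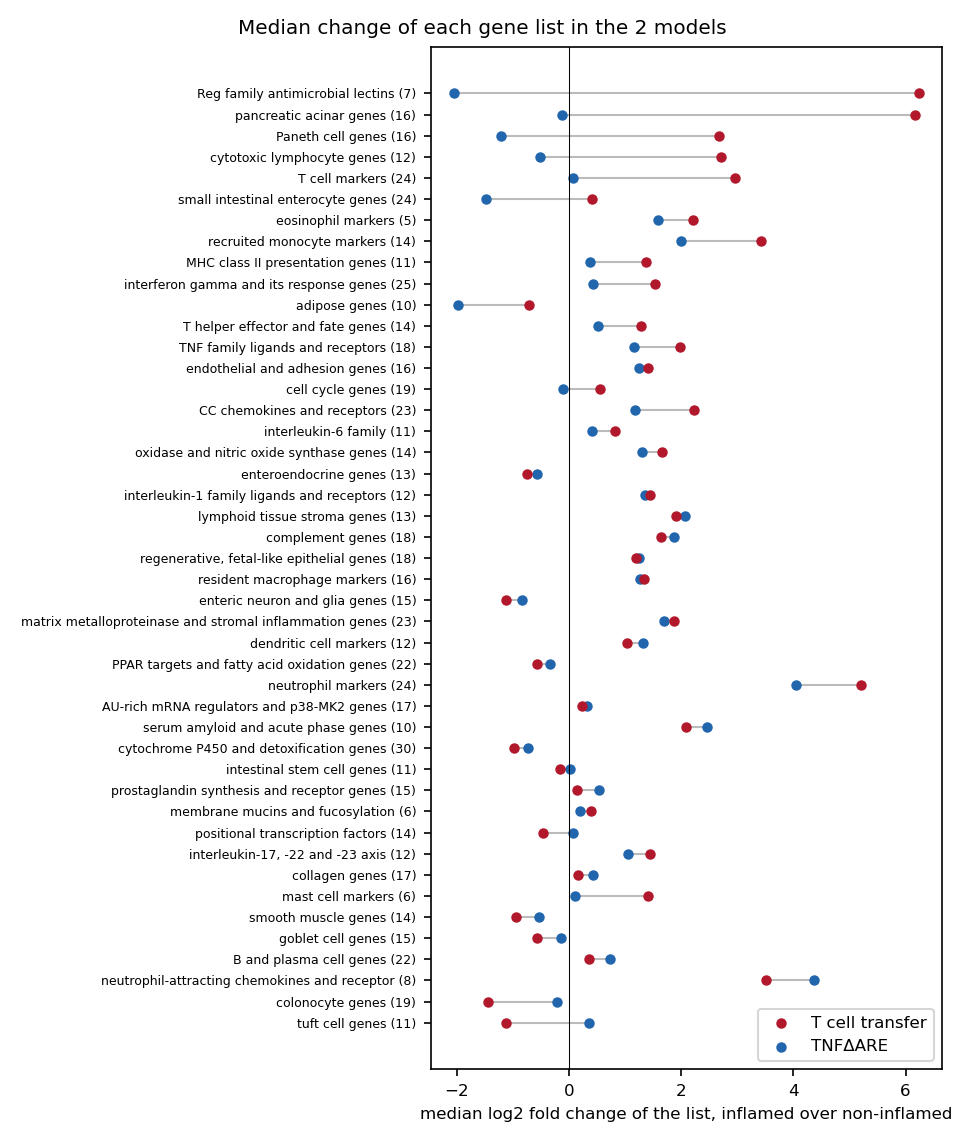
Median log2 fold change, inflamed over non-inflamed, of each gene list with at least 5 tested members (number in brackets) in the transfer (red) and TNFΔARE (blue) model, ordered by the median difference. T cell, cytotoxic, Reg and Paneth lists lie far apart between the models, with neutrophil, complement, macrophage and matrix lists high in both; the acinar list is high in the transfer model, where inflamed replicates 1 and 5 held these transcripts.

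The levels in the non-inflamed groups, which are other mice than the inflamed ones, differed between the models for most genes called in the difference. Of the 313 genes with the higher change in the transfer model, 304 (97.1%) were lower in non-inflamed transfer than in non-inflamed TNFΔARE mice, with a median of -2.01 on the log2 scale, and the median was -0.23 between the inflamed groups. Of the 239 genes with the lower change, 13 (5.44%) were lower in non-inflamed transfer mice, and the medians were 1.79 between non-inflamed and 0.07 between inflamed groups. The models were nearer to each other when inflamed for 85.6% of the 313 and 74.1% of the 239 genes, against 56.3% of all genes tested. The non-inflamed level enters the difference by construction, so these shares are a description. Cd3d, Reg3b and Cdkn2a, low in non-inflamed transfer mice, and Il1rn, Tnip3 and Car1, low in non-inflamed TNFΔARE mice, are examples given above.

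**Figure D5:**
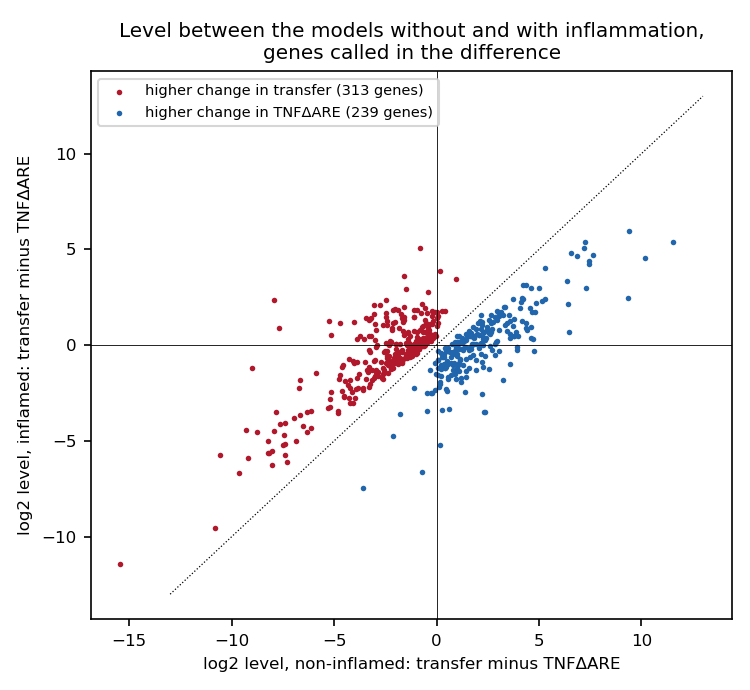
Log2 level in transfer minus TNFΔARE mice for the 552 genes called in the difference, in non-inflamed mice on the horizontal and in inflamed mice on the vertical axis. Genes with the higher change in the transfer model (red) lie mostly left of 0 and genes with the lower change (blue) mostly right of it, and both lie closer to 0 on the vertical than on the horizontal axis.

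The sizes of these calls depended on which libraries entered. The 552 became 313 without non-inflamed transfer replicate 6 and 1031 without non-inflamed transfer replicate 7, whose Cxcl2, S100a9 and Reg3b stood above its group, and 279 without the libraries with acinar transcripts. Within a single batch of each model 16 genes were called in the difference and 1 in the transfer model, where 4 inflamed stood against 2 non-inflamed libraries. All 549 of the 552 genes that were tested there kept their sign. The 552 were called from a set that holds these same libraries, so the kept signs are no independent check. The median log2 change of neutrophil markers was then 4.51 in transfer and 4.19 in TNFΔARE mice, and that of T cell markers 2.31 and 0.11. With inflamed transfer replicate 3 included, 694 genes were called in the difference and 555 in the same direction in both models.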

How the data were processed

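Poly-A RNA sequencing of intestine was deposited as a table of expected counts per gene for each model, which the authors deposited as whole numbers. Salmon 0.14.1, DESeq2, mm10 and GRCm38 are the tools and builds given per the submitters' processing notes. The deposited normalized tables were not used. The labels do not say that each library is a separate animal, so p-values measure the spread between libraries. From these estimated counts the models' tables were joined on gene ID, and 43 libraries were fitted in edgeR 4.0.16 (R 4.3.3; TMM, filterByExpr, robust quasi-likelihood F-test) with 8 groups and batch nested in model. Adjusted p-values are Benjamini-Hochberg over 15555 genes, with the threshold at 0.05. Errors of log2 changes are Wald standard errors. The scripts were tested on simulated data. Symbols were matched for 29395 of 29720 gene IDs, gene positions are from GENCODE vM21, and promoters from RefSeq GRCm38.p6. Named genes averaged at least 1 CPM over the 20 libraries, leaving out gene models, pseudogenes and antigen receptor segments. They are the 6 highest and 6 lowest differences, the 6 rising and 4 falling shared genes with the largest smaller change, the 3 largest opposite genes each way, the leading gene of each of the 10 lists with the largest share called in the difference, and likewise in both models, and Tnf, Il1b, S100a8, Cd3d, Ifng and Reg3g. Members and lists were chosen with earlier results of these data known. Alternatives were DESeq2 1.42.0, limma-voom 3.58.1, RLE scaling, no filter, other batch terms, a replicate block and other sets of libraries. Counts of 0 allow up to 3 counts, and intervals of pooled ratios are exact 95% binomial, covering counting error only. Fits for genes near 0 in a whole group depend on edgeR's prior count.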

Additional observations from a re-analysis of the deposited data

Results flagged for a closer look

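In 23 of 192 gene and group combinations (12.0%) of the 48 named genes, the highest or lowest of 5 libraries lay apart from the others by Dixon's ratio on log2 CPM, the gap to the nearest library over the whole range, at above 0.71. Chance flags about 1 in 20 groups. Inflamed transfer replicate 1 stood apart for Slc5a12 (ratio 0.915), Gip (1), Mptx2 (0.945), Defa24 (0.733), Lyz1 (0.726) and Treh (0.895), and replicate 2 for Slc37a2 (0.848). Non-inflamed transfer replicate 7 stood apart for Reg3a (1), Defa24 (1), Ly6i (0.726), S100a9 (0.711) and Cxcl2 (0.785), and replicate 1 for Slc5a12 (1). Inflamed TNFΔARE replicate 2 stood apart for Mptx2 (0.729) and Lyz1 (0.733), and replicate 1 for Zdhhc1 (0.779). Non-inflamed TNFΔARE replicate 1 stood apart for Aqp8 (1), Tnip3 (1), Slc37a2 (0.726) and Clec4d (1), replicate 4 for Dclk3 (0.826) and Reg3b (0.756), and replicate 5 for Cyp2d34 (1). A ratio of 1 means that the other 4 libraries had the same value, which was 0.

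The inflammation effect differed between the models by the test of the difference itself for 27 named genes. On the log2 scale, transfer minus TNFΔARE, the positive differences were 9.05 for Slc5a12, 8.68 for Reg3a, 7.79 for Gip, 7.31 for Mptx2, 7.2 for Cdkn2a, 7.2 for Defa24, 7.15 for Reg3b, 6.23 for Spp1, 5.45 for Reg3g, 4.95 for Lyz1, 4.58 for Fasl, 4.29 for Sytl3, 4.14 for Slc51a, 3.8 for Cd3d, 3.68 for Treh, 1.91 for Cyp4v3 and 1.72 for Thy1. The negative ones were -10.2 for Zdhhc1, -9.85 for Aqp8, -8.61 for Car1, -6.09 for Cyp2d34, -5.9 for Tnip3, -5.46 for Slc37a2, -5.19 for Gal3st2c, -4.39 for Il1rn, -4.08 for Tspan33 and -2.03 for Muc4. Those of Slc5a12, Gip, Cdkn2a, Zdhhc1, Aqp8, Cyp2d34 and Tnip3 rest on a group with 0 to 3 counts in all, so their size depends on the prior count of the fit and is no bound.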

How the results depend on the processing

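The difference between the models was called for 552 genes, and for 557 with RLE scaling, 439 without a count filter and 552 with batch shared by both models. It was called for 887 with DESeq2, 1379 with limma-voom, 894 without a batch term, 350 in vehicle libraries alone, 16 within a single batch of each model, 198 without the Car1 libraries, 279 without the libraries with acinar transcripts (chosen after seeing the data, as is the next) and 89 without both. Of the called genes 56.7% had the higher change in transfer mice, 37.5% within a single batch and 44.4% without the Car1 libraries. In transfer mice 3188 genes changed, against 5708 with limma-voom, 1 within a single batch, 1646 without the libraries with acinar transcripts and 1472 without both sets. In TNFΔARE mice 2206 changed, against 3360 with limma-voom, 1336 in vehicle libraries alone, 1206 within a single batch, 1051 without the Car1 libraries and 965 without both sets. The count of 907 in the same direction became 1582 with limma-voom, 0 within a single batch by edgeR (1026 at an unadjusted p under 0.05 in both models, with other tools not run there), 555 with inflamed transfer replicate 3, 508 without the Car1 libraries and 368 without both sets. The 58 opposite genes became 94 with DESeq2, 119 with limma-voom, 0 within a single batch by edgeR (73 at an unadjusted p under 0.05 in both), 17 without the Car1 libraries, 26 without the libraries with acinar transcripts and 7 without both sets. Aqp8 reversed to 0.26 without both sets (adjusted p = 0.987). The cause of these changes was not tested, but fewer libraries were fitted where some were left out.

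Leaving out 1 library at a time gave 313 to 1031 genes for the difference, 1555 to 4021 for transfer mice, 1604 to 2380 for TNFΔARE mice, 639 to 1062 for the same direction and 26 to 80 for opposite directions. The transfer count was 1555 and the opposite count 26 without non-inflamed transfer replicate 6, and 1996 and 36 without inflamed transfer replicate 6. The difference was 313 without non-inflamed transfer replicate 6 and 1031 without replicate 7 of that group. Over the differences of the named genes, 925 of 960 values without 1 library kept the side of the threshold, 34 lost and 1 gained the call. Under the other settings 541 values kept it, 80 lost and 2 gained the call, and 1 reversed. Both tallies include named genes without a called difference.

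Same-numbered libraries were not treated as pairs. Deviations from the group means correlated above 0.1 in 0 of 4 transfer pairs (-0.295 to 0.0736) and 2 of 5 TNFΔARE pairs (-0.0443 to 0.304). So few correlations cannot show whether the libraries were paired. With a replicate block the difference was called for 3678 genes, the transfer effect for 6706 and opposite directions for 123.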

Other observations

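Among lists not described above, 11 of 22 PPAR targets and fatty acid oxidation genes fell and 1 rose in transfer mice, 6 fell in TNFΔARE mice and 5 fell in both. Ppargc1a, a coactivator of mitochondrial genes, fell in both (log2 changes -2.04 and -1.40, edgeR adjusted p = 5.11e-05 and 0.00167). Angptl4, an inhibitor of lipoprotein lipase, was the member called in the difference, at 3.37 (adjusted p = 0.0105), and did not pass without the libraries with acinar transcripts (adjusted p = 0.121). Of 14 smooth muscle genes 7 fell in transfer mice and 1 in TNFΔARE mice, of 15 enteric neuron and glia genes 5 fell and 1 rose in transfer mice and 1 fell in TNFΔARE mice, and of 15 goblet cell genes 6 fell in transfer mice and 1 rose and 1 fell in TNFΔARE mice. EdgeR called none of these 44 in the difference (3 goblet cell genes at an unadjusted p under 0.05), and DESeq2 and limma-voom each called 1 goblet cell gene. Of all genes tested edgeR called 3.55% in the difference, so a count of none among 44 is near the share over all genes.

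Of 14 oxidase and nitric oxide pathway genes 7 rose in transfer mice, 9 in TNFΔARE mice and 5 in both, among them Cybb and Ncf1 of the phagocyte oxidase, whose log2 changes were 3.10 and 2.55, and 2.73 and 2.41. The arginase Arg2 had a higher change in transfer mice, with log2 changes of 2.05 in transfer and -1.02 in TNFΔARE mice and a difference of 3.07 ± 0.63 (SE, 95% confidence interval 1.80 to 4.34, adjusted p = 0.00279). Hpgds, a prostaglandin D synthase, went in opposite directions, with log2 changes of -1.01 ± 0.30 (SE, adjusted p = 0.0139) in transfer and 1.14 ± 0.28 (SE, adjusted p = 0.00523) in TNFΔARE mice. Of 17 regulators of AU-rich mRNA and MK2 signalling 4 rose in transfer mice, 7 in TNFΔARE mice and 3 in both, with Mapkapk2, the kinase MK2, at 0.49 and 0.34 on the log2 scale. These genes were picked after their values were seen, and no explanation was tested.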
